A study of Arabidopsis thaliana with 6 samples.

Results

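The RNA of globular Arabidopsis thaliana embryos was set against that of embryos at the 2-4 cell stage, all from a wild-type Landsberg erecta (Ler) mother crossed to a Columbia (Col) father. The comparison used 3 of the 6 libraries of the series, taken by the stage and cross in their labels: 1 library of globular embryos and 2 libraries of 2-4 cell embryos, numbered 7 and 11. Of the other libraries, 2 came from 2-4 cell embryos of mothers carrying kyp-2, a mutant allele of the histone methyltransferase gene KRYPTONITE, crossed to Col, and 1 came from Ler seed coat collected when the embryos had 2-4 cells. The labels of kyp library 11 give the mother as both kyp-2 and wild type, so its genotype is uncertain. Those 3 libraries were not part of the contrast and are given as reference levels. All 6 libraries decided which transcript stood for a locus, which genes were tested and how reads were scaled. The kyp pair also entered the estimate of the spread. Embryos were dissected by hand with part of the suspensor attached, and their RNA was amplified before sequencing, so each value is a level in pooled tissue after amplification. The labels of the globular library give the mother as wild type and name no genotype for the father. The Ler background also carries a mutation in ERECTA, which both stages share through the mother. The labels do not say whether the libraries came from separate plants or dissections, so a p-value here covers only how these libraries vary, and that variation may be technical. With 1 globular library, the spread of that stage was not measured and was taken to be that of the replicated 2-4 cell groups.

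In Arabidopsis the zygote divides unequally, and the apical daughter forms the embryo proper while the basal daughter forms the suspensor. Between the 2-4 cell and the globular stage the embryo proper lays down its protoderm, the first vascular and ground tissue initials, the root founder cell and the fields from which cotyledons and shoot meristem arise. Directed auxin flow, cytokinin signalling in the provascular cells, and transcription factors of the class III homeodomain-leucine zipper (HD-ZIP III), PLETHORA, GRAS and NAC families are known to mark these domains.

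The globular library held 1773582 reads on annotated loci, against 2497235 and 3906313 in WT 2-4 cell libraries 7 and 11, and reads fell on 17835 loci in it, against 18184 and 19396. Ribosomal RNA loci took 8.999% of the reads of WT library 11 and between 0.804% and 1.80% in the other 5 libraries. Levels are given in CPM, reads scaled to a common library size by the trimmed mean of M-values. The embryo label was checked with 10 embryo-proper genes, whose summed level was 1913 CPM in the globular library, and 1473 and 1389 CPM in the 2-4 cell libraries. The seed coat library had a sum of 993 CPM, and 6 of the 10 genes had reads in it, among them PDF2 at 366 CPM and ATML1 at 327 CPM. LEC1, FUS3 and DORNROSCHEN, embryo regulators among those 10 genes, had no reads in the seed coat library. The 23 seed coat and integument genes all had reads in all 3 embryo libraries: their sum was 9098 CPM in the globular library, 14704 and 9043 CPM in the 2-4 cell libraries, and 8932 CPM in the seed coat itself. The sum in the globular library lay inside the range of the 2-4 cell libraries. The flavonoid gene TT4 alone gave 4137 CPM of it, and 4961 and 1742 CPM of the sums in 2-4 cell libraries 7 and 11. Of all 17706 tested genes, 9695 were lower and 7889 higher at the globular stage. Of the 23 seed coat and integument genes, 17 were lower and 6 higher. The part of these genes in the results below was not tested. Of 10 endosperm genes, AGL36, MPC and IKU2 were at 0 in the globular library, IKU2, uncertain for an overlap on the other strand, also in WT library 11, whereas ZOU had 7 reads at the globular stage and none in the WT 2-4 cell libraries. The endosperm sum was 59.98 CPM against 89.6 and 68.4 CPM. The suspensor genes WOX8 and WOX9 summed to 18.4 CPM against 9.81 and 42.04 CPM. A pair of pollen genes summed to 3.56 CPM against 0.853 and 7.85 CPM. In libraries of bulk tissue, fewer cells of a type and less RNA per cell cannot be told apart.

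**Figure D1:**
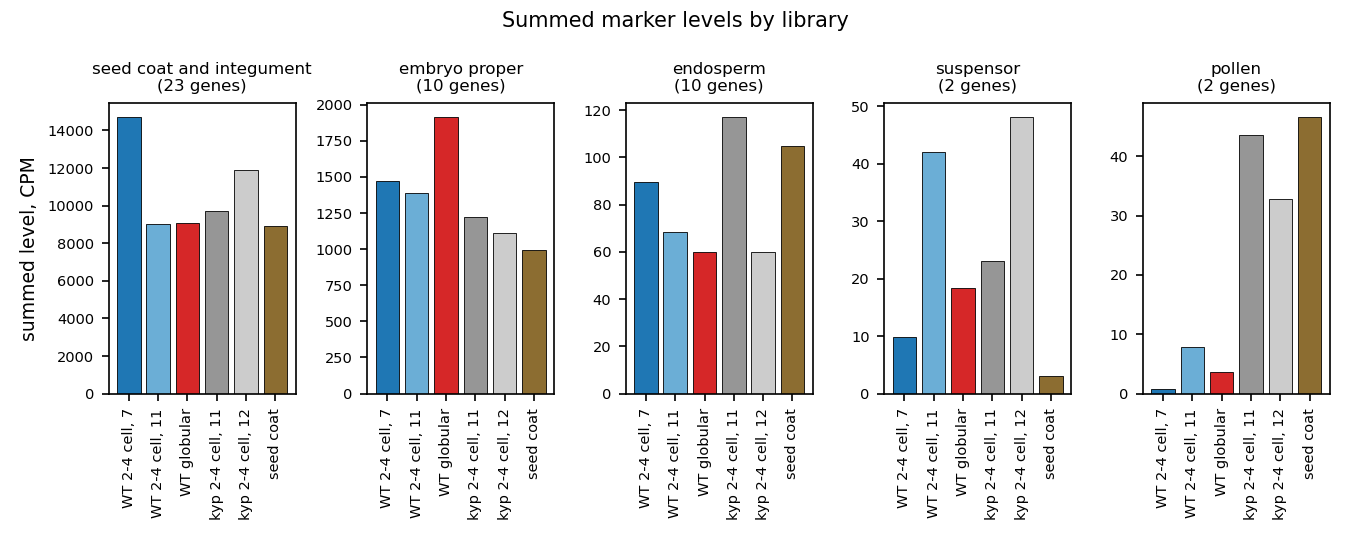
Summed level in CPM (vertical axis, from 0) of the marker genes of 5 tissues in each of the 6 libraries, with 1 bar per library and no error bars since each bar is 1 library. The globular library has the highest embryo-proper sum, 1913 CPM, and a seed coat sum of 9098 CPM, inside the range of the 2-4 cell libraries. TT4 alone gives 4137 CPM of that seed coat sum.

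Of 17706 genes tested, 68 rose (0.384%) and 137 fell (0.774%) from the 2-4 cell to the globular stage at an adjusted p of 0.05, by edgeR's quasi-likelihood test with Benjamini-Hochberg adjustment. Of these, 10 that rose and 25 that fell are uncertain, since they overlap a gene on the other strand or share sequence with another locus. The median log2 difference was 4.15 for the genes that rose and -3.93 for those that fell, and the smallest sizes were 1.82 and 2.13. The median over all tested genes was -0.12. A fitted difference is no bound where a stage had no read, so such genes were also set at their bound against a floor of 3 reads per library, which moved these medians to 4.15, -3.67 and -0.06. List medians below are the fitted ones, and both are given where they differ by more than 0.1. For a tested gene the typical gap between the 2-4 cell libraries was nearly as wide as the gap between stages: the median absolute log2 difference was 0.632 between libraries 7 and 11 and 0.663 between the globular library and their mean, both on the log2(CPM + 1) scale. The genes that rose had 12 members with no read in either WT 2-4 cell library, and the genes that fell had 28 with no read in the globular library. Among all 17706 tested genes, 250 had no read in either WT 2-4 cell library and 1353 had none in the globular library. The kyp libraries, which share the earlier stage, lay on the same side for nearly all genes that rose or fell. All 68 were higher in the globular library than in either kyp library, and of the 137 all but AT1G62500, a lipid-transfer family gene, were lower. Over all tested genes the globular library was above both kyp libraries for 34.3% and below both for 38.4%. This shares the globular library with the comparison and adds no separate evidence.

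**Figure D2:**
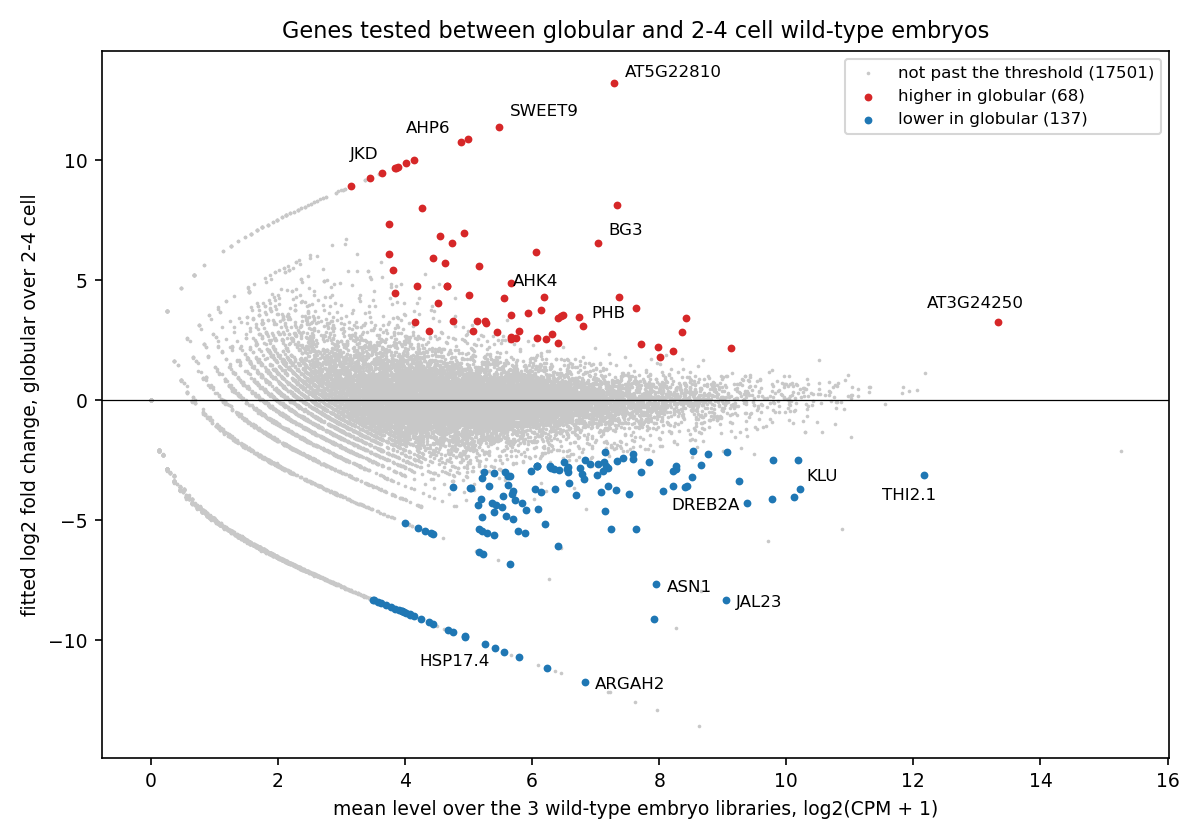
Log2 difference of the globular library over the WT 2-4 cell libraries (vertical axis) against the mean level over the 3 wild-type embryo libraries as log2(CPM + 1) (horizontal axis) for 17706 tested genes, with genes past the adjusted p of 0.05 coloured and some named. The 68 genes that rose and 137 that fell lie above and below a broad cloud whose median is -0.12; curved edges hold genes with few or no reads in a stage.

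PHABULOSA rose and most other HD-ZIP III and polarity genes had higher values at the globular stage. HD-ZIP III messages are cleaved by the microRNAs miR165 and miR166, which restrict them to the inner and upper side of the embryo. The mature microRNAs and the matching sites are shown because the family shares this site while its members differed in level. The sequences are those of RefSeq for the Columbia reference TAIR10.1, in RNA letters. In the microRNAs, capitals mark the seed, bases 2 to 8.
miR166a-3p: uCGGACCAggcuucauucccc
miR165a-3p: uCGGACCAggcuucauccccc
In the sites, capitals mark bases that do not pair with the closest of these microRNAs, G:U pairs included.
PHB and PHV: UUgggaugaagccugguccgG
ATHB15: CUggaaugaagccugguccgG
REV and ATHB8: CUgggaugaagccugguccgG
Each site had 3 such bases, and 12 of 27562 protein-coding transcripts (0.044%) held a match with at most 4. The bases facing the seed paired in all 5 genes, and the sites differed from each other only towards the end that faces the microRNA's 3′ end.

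PHABULOSA (PHB), which specifies the upper side of organs and the shoot pole, was at 22.2 and 40.1 CPM in the 2-4 cell libraries and 268 CPM in the globular library. The stages did not overlap, and the kyp libraries, at 28.4 and 15.3 CPM, stayed with the earlier stage. PHB rose by 3.10 ± 0.55 (SE) on the log2 scale (adjusted p = 0.00839, edgeR quasi-likelihood test), from a mean of 31.1 ± 12.7 CPM (SD, n = 2), a ratio of 8.60. The other 4 HD-ZIP III genes were also above both 2-4 cell libraries without passing the test. Of all 17706 tested genes, 33.9% were above both. PHV, chosen after its values were seen, had 5.12 and 7.29 CPM against 38.01 CPM (adjusted p = 0.234, edgeR). ATHB15 had 4.69 and 20.5 CPM against 66.5 CPM (adjusted p = 0.188, edgeR), and REV had 21.8 and 36.7 CPM against 50.5 CPM (adjusted p = 0.725, edgeR). Per kilobase of transcript, PHB was the highest of the 5 at both stages, at 10.2 CPM per kb in the 2-4 cell mean and 87.4 CPM per kb in the globular library. REV followed it in the 2-4 cell mean, at 8.35 CPM per kb, and ATHB15 in the globular library, at 19.4 CPM per kb. Of the list's 16 members, 9 were tested: 7 were higher and 2 lower, the median log2 difference was 2.60 against -0.12 for all genes, and 1 passed. Among the tested members that were lower was AS1, a MYB factor of leaf polarity, at 101 and 139 CPM against 27.3 CPM. AS1 overlaps a gene on the other strand, so its value is uncertain. The host loci of miR165 and miR166 had at most 3 reads in any library.

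PLETHORA genes, which set the root pole, had a list median of 1.22 over 6 tested members, of which 4 were higher and 1 passed. PLT3 had 1 read in WT library 7, none in library 11 and 62 in the globular library, a ratio of 218 (95% counting interval 37.6 to 8734, covering counting error only; adjusted p = 0.0151, edgeR). The kyp libraries had 6.61 and 11.4 CPM of PLT3 against 36.8 CPM in the globular library, so the absence at the earlier stage was not shared by all 4 libraries of that stage. PLT3 overlaps a gene on the other strand and is uncertain. PLT1 had 1.71 and 26.9 CPM against 51.1 CPM, PLT2 34.1 and 78.2 CPM against 38.6 CPM, and BBM, an embryo-inducing member of the same family, 46.1 and 35.6 CPM against 62.9 CPM. The 2-4 cell libraries differed widely for PLT1 and spanned the globular value for PLT2.

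Ground tissue genes had a median of 0.56 over 8 tested, with 6 higher and 1 past the test. JACKDAW (JKD), a zinc finger protein that works with SHORT-ROOT and SCARECROW in ground tissue divisions, had no read in either WT or either kyp 2-4 cell library but 68 at the globular stage. Against the floor this is at least 38.1-fold higher (adjusted p = 0.0262, edgeR). JKD was among the less settled calls: its adjusted p was 0.0843 with the library-name prefix as a block, 0.0555 at equal depth and 0.0529 with isoforms summed, all by edgeR, and DESeq2 gave none. SHR, at 118 and 118 CPM, and SCR, at 52.1 and 70.1 CPM, were already present at the earlier stage. They stood at 153 and 99.8 CPM in the globular library and did not pass.

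Shoot apex and cotyledon boundary genes had a median of 0.52 over 9 tested, 5 of them higher, and none passed. At an unadjusted p of 0.05 by edgeR 3 were higher, beside 761 of all 17706 tested genes. CUP-SHAPED COTYLEDON1 (CUC1), a NAC factor that separates the cotyledons, had no read in any of the 4 2-4 cell libraries and 56 at the globular stage, at least 31.4-fold more (adjusted p = 0.0551, edgeR). KNAT6, a meristem homeobox gene, had 0.427 and 4.204 CPM against 48.1 CPM (adjusted p = 0.112, edgeR). DRNL, an AP2 factor of the cotyledons chosen here after its values were seen, had no read in the 4 libraries and 47 in the globular library (adjusted p = 0.0999, edgeR). HAM1, a GRAS factor that maintains meristems and also chosen after its values were seen, rose from 3.84 and 8.97 CPM to 64.7 CPM (log2 difference 3.30 ± 0.77, adjusted p = 0.0456, edgeR). HAM1 and CUC1 both carry microRNA sites, of miR171 and miR164. They are shown because the sites differ in how fully they pair, and capitals mark unpaired bases in the sites and the seed in the microRNAs.
miR171a-3p: uGAUUGAGccgcgccaauauc
HAM1: gauauuggcgcggcucaauca
miR164a: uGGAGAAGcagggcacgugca
CUC1: AgcacgugUccugUuucucca
The HAM1 site paired at every base and the CUC1 site left 3 bases unpaired. Matches with at most 4 unpaired bases lay in 8 transcripts for miR171 and 16 for miR164, out of 27562.

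ANGUSTIFOLIA3 (AN3), a transcriptional coactivator that promotes cell proliferation in leaves, had 6.83 and 12.6 CPM against 195 CPM, a rise of 4.304 ± 0.63 on the log2 scale (adjusted p = 0.00184, edgeR). Its binding partner GRF2, chosen after its values were seen, had 20.5 and 19.1 CPM against 211 CPM, a rise of 3.41 ± 0.59 (adjusted p = 0.0064, edgeR). For both genes the kyp libraries were at or below 13.2 CPM. The receptor kinase genes ERL2 and ERL1, relatives of ERECTA chosen after their values were seen, rose as well. ERL2 had 81.1 and 95.9 CPM against 447 CPM, and ERL1, which overlaps a gene on the other strand and is uncertain, 28.2 and 28.3 CPM against 164 CPM. The seed coat library held 11.7 CPM of ERL2 and 9.86 CPM of GRF2, below all 3 wild-type embryo libraries. It held 31.8 CPM of AN3, above both WT 2-4 cell libraries and below the globular library.

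Cytokinin genes as a list were balanced, with 20 higher and 20 lower of 40 tested and a median of -0.01, but 2 members of its signalling branch rose. AHP6, a pseudo-phosphotransfer protein that damps cytokinin signalling, had 156 reads at the globular stage, 92.6 CPM, and none in the 5 other libraries. That is at least 87.4-fold more than at the 2-4 cell stage (adjusted p = 0.00147, edgeR). AHK4, the cytokinin receptor needed for divisions of vascular initials, had 5.12 and 7.85 CPM against 126 CPM, a rise of 4.25 ± 0.70 (adjusted p = 0.00449, edgeR). The kyp libraries, at 8.60 and 4.37 CPM, and the seed coat, at 10.3 CPM, were with the earlier stage. The other receptors did not pass: AHK3 had 81.5 and 128 CPM against 62.4 CPM, and AHK2, chosen after its values were seen, 6.40 and 9.25 CPM against 17.82 CPM. The difference between receptors was not tested.

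Among auxin genes ARF3 rose and the transport genes had mostly higher values. Of 15 tested transport genes 10 were higher, with a median of 1.20 and no call. Influx carrier AUX1 had 36.3 and 49.3 CPM against 98.6 CPM; LAX2 and the kinase gene PID, chosen after their values were seen, had 7.25 and 0.561 against 71.9 CPM, and 5.55 and 14.6 against 46.3 CPM. All 3 stood above both 2-4 cell libraries, as did 33.9% of all tested genes. ABCB1, an efflux carrier, was below both, at 548 and 371 CPM against 205 CPM. Of 44 tested response genes 22 were higher and 22 lower, with a median of -0.04. ARF3 (ETTIN), an auxin response factor of the lower organ side, was the 1 call: 19.6 and 18.8 CPM against 112 CPM, a rise of 2.54 ± 0.55 (adjusted p = 0.0326, edgeR), which was lost without WT library 11 (adjusted p = 0.0626). The ARF3 call was also lost with isoforms summed. ARF5 (MONOPTEROS), which drives vascular and root initiation, was abundant at both stages, at 295 and 383 CPM against 637 CPM, and did not pass. Of 9 synthesis genes 4 were higher; none passed, and the median of -1.49 was 0 with genes at their bound and ranged from -1.57 to 0.54 among the alternatives.

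**Figure D3:**
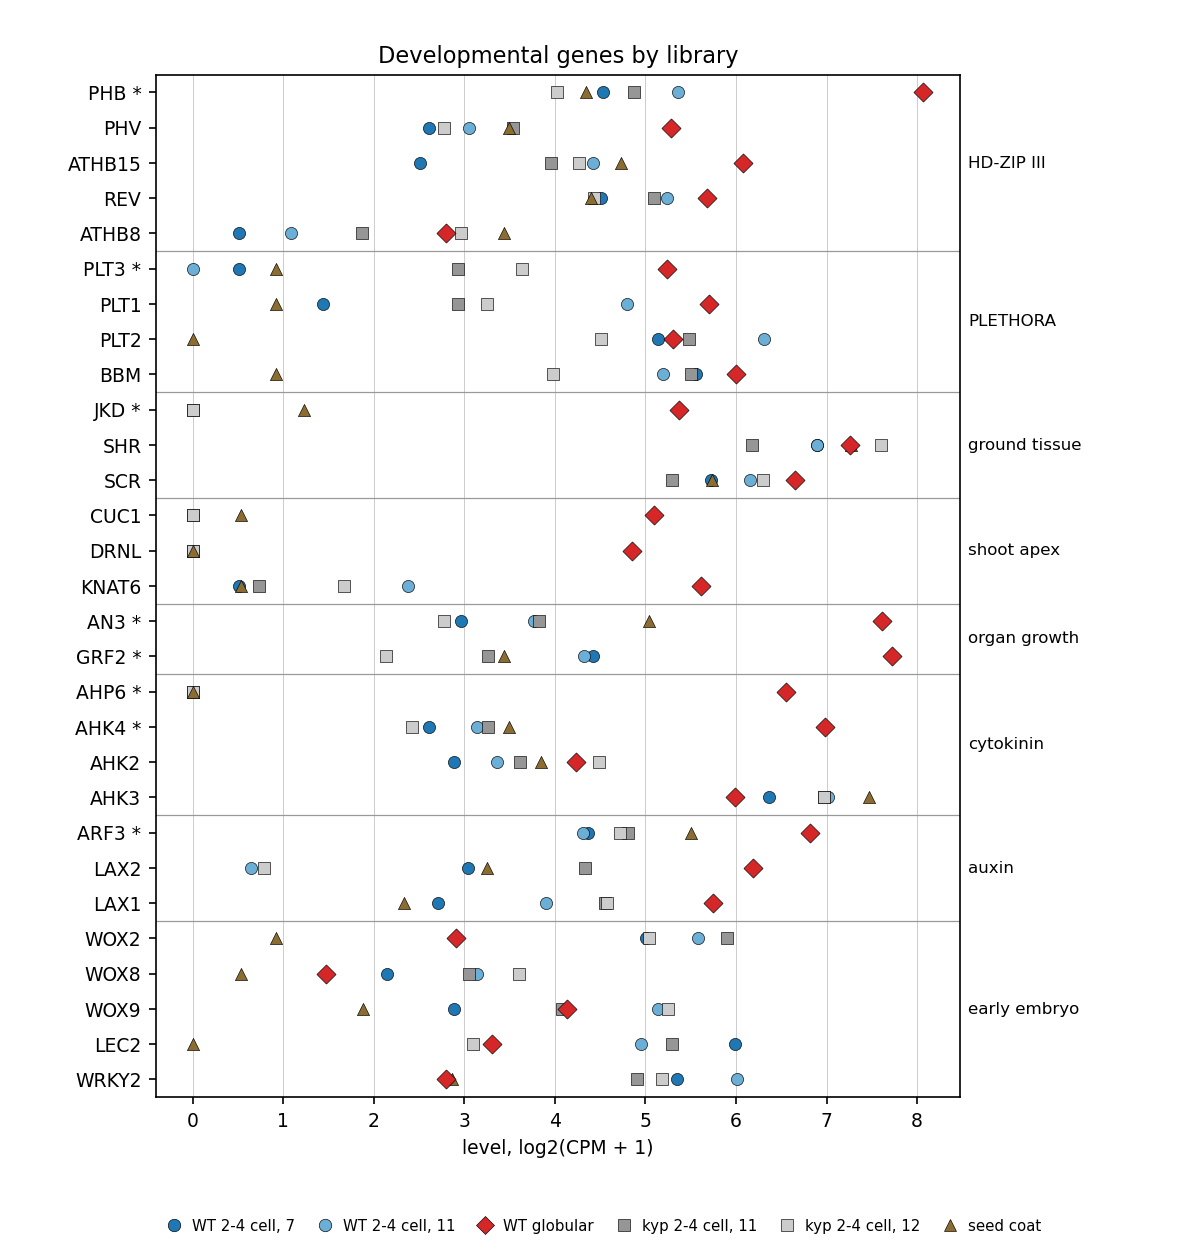
Levels of patterning, hormone and growth genes in each library as log2(CPM + 1), with 1 point per library and an asterisk on genes past the adjusted p of 0.05. PHB, AHK4 and AN3 in the globular library, at 268, 126 and 195 CPM, stand apart from all 2-4 cell libraries.

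No gene of the zygote polarity and WOX lists passed. WOX2, the homeobox gene of the apical cell, had 31.1 and 46.8 CPM at the 2-4 cell stage, 58.9 and 31.8 CPM in the kyp libraries and 6.53 CPM in the globular library (adjusted p = 0.179, edgeR). WRKY2, which activates WOX8 in the zygote, had 39.7 and 63.3 CPM against 5.94 CPM (adjusted p = 0.0797, edgeR). MPK3, a kinase of the YODA pathway that overlaps a gene on the other strand, had 28.2 and 95.9 CPM against 6.53 CPM (adjusted p = 0.0655, edgeR). In all 3 genes the globular library was below all 4 libraries of the earlier stage. The same held for 25.2% of all tested genes. Of 8 tested zygote polarity genes 5 were lower, with a median of -0.69, and 9695 of all 17706 tested genes were lower. Of 5 tested WOX genes 4 were lower, with a median of -0.30, although WOX5, the gene of the root organizer, had 13.7 CPM against 0 and 0.280 CPM. The suspensor list had a median of -0.69 over 6 tested. Epidermis genes had a median of 0.03 over 20 tested, 10 of them higher, and no call. The protoderm homeobox genes ATML1 and PDF2 had 572 and 454 CPM against 323 CPM, and 498 and 365 CPM against 603 CPM. LEC and maturation regulators had 6 of 10 higher, a median of 0.49 (0.08 at the bound) and no call; ABI3 had 10.7 and 10.4 CPM against 70.7 CPM, and 8.60 and 0 CPM in the kyp libraries. Storage protein and oleosin genes were near 0 throughout, with 3 of 14 tested and no call.

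The genes that rose most clearly or to the highest levels were mostly outside the lists. AT3G24250, a glycine-rich protein, was the most abundant gene that rose, from 2024 and 3357 CPM to 25582.5 CPM (43079 reads), a rise of 3.25 ± 0.38 (adjusted p = 0.000452, edgeR). It held 48.0 CPM in the seed coat and lay between 2302 and 4023 CPM in the kyp libraries. BG3, a beta-1,3-glucanase, had 6.83 and 1.68 CPM against 384 CPM, a rise of 6.56 ± 0.65 (adjusted p = 8.65e-05, edgeR). SWEET9, a sugar uniporter known from nectaries, had no read in the 5 other libraries and 131 CPM in the globular library, at least 124-fold more than at the 2-4 cell stage (adjusted p = 0.000465, edgeR). BGLU29, a beta-glucosidase, had 2 and 1 reads against 112, a ratio of 131 (95% counting interval 43.7 to 645; adjusted p = 0.00481, edgeR). ADS1, an acyl-lipid desaturase, had 18.8 and 26.1 CPM against 450 CPM, and AT2G34700, of the extensin and Ole e 1 family, 32.4 and 39.0 CPM against 522 CPM. AGP31, an arabinogalactan protein of the wall, had 111 and 113 CPM against 528 CPM, and the purine permease PUP4 305 and 206 CPM against 1163 CPM. The call on PUP4 was lost without WT library 11 (adjusted p = 0.0528, edgeR). These 8 genes were higher in the globular library than in every 2-4 cell library, as were 23.7% of all tested genes. AT4G30250, a nucleoside triphosphatase, had 3.84 and 0 CPM against 477 CPM; edgeR called it (adjusted p = 0.000216) and DESeq2 did not (adjusted p = 0.0668). AT1G32583, a relative of the peptide TPD1, had no read in the WT 2-4 cell libraries, 6 in each kyp library and 85.5 CPM in the globular library, at least 80.6-fold more than in the WT libraries, and DESeq2 gave it an adjusted p of 0.0572. SADHU1-2, a retroelement, had 1.71 and 2.24 CPM against 100.4 CPM. DELTA-VPE, a vacuolar protease known from inner seed coat layers, and PAN, a bZIP factor of floral organ number, rose from 96.0 and 65.9 to 863 CPM and from 4.69 and 0.841 to 192 CPM. Both overlap genes on the other strand and are uncertain, as is AT5G22810, a GDSL lipase with at least 440-fold more.

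Heat shock genes were lower at the globular stage. Small heat shock proteins hold unfolding proteins, and their genes are activated by heat shock factors through heat shock elements in the promoter. None of the 9 tested members of 13 was higher, 4 fell, and the median was -5.52 against -0.12 for all genes; with the 4 members that had no globular read at their bound it was -2.31. Their summed level was 591 and 436 CPM in the WT 2-4 cell libraries, 306 and 210 CPM in the kyp libraries, 110 CPM in the globular library and 13.4 CPM in the seed coat. HSP17.6B had 86.2 and 39.0 CPM and no read in the globular library, at least 35.1-fold less (adjusted p = 0.00703, edgeR). HSP17.4, which overlaps a gene on the other strand and is uncertain, had 116 and 47.6 CPM and no read, at least 45.8-fold less (adjusted p = 0.00257, edgeR). HSP17.6C had 65.7 and 47.9 CPM against 2 reads, a ratio of 46.3 (95% counting interval 12.7 to 384; adjusted p = 0.0144, edgeR). HSP17.6A had 107 and 45.1 CPM against 4.16 CPM (adjusted p = 0.0262, edgeR), a call lost without WT library 7 (adjusted p = 0.0622) and with isoforms summed (adjusted p = 0.0546). For all 4 genes the kyp libraries, between 9.72 and 39.0 CPM, lay between the globular and the WT 2-4 cell values. HSP23.5, a mitochondrial member, had 105 and 134 CPM against 68.3 CPM and did not pass. All 9 tested genes were lower in the globular library.

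Chaperones and heat shock factors had 28 of 32 tested lower, a median of -1.25 (-1.07 at the bound) and 3 calls. Over all 17706 tested genes, 9695 were lower and 0.774% fell. HSFA2, a heat shock factor itself induced by heat, had 510 and 325 CPM in the WT 2-4 cell libraries, 90.596 and 204 CPM in the kyp libraries and 54.6 CPM in the globular library, and fell by 2.93 ± 0.62 on the log2 scale (adjusted p = 0.0269, edgeR). DREB2A, an activator of drought and heat genes that overlaps a gene on the other strand and is uncertain, had 355 and 413 CPM against 27.9 CPM (adjusted p = 0.00222, edgeR). HSP70-4 had 281 and 191 CPM against 44.5 CPM (adjusted p = 0.0411, edgeR), a call lost without WT library 7 (adjusted p = 0.0644) and with isoforms summed (adjusted p = 0.0705). HSP70-1, a constitutive chaperone, had 1804 and 1154 CPM against 1928 CPM and did not pass.

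The heat shock element was searched in the 250 bases before and 50 after each gene start of RefSeq TAIR10.1, as GAANNTTCNNGAA or TTCNNGAANNTTC, which are each other's reverse complement, so both strands were covered. It lay in 134 of 27561 promoters (0.486%) and in 96 of 17267 tested genes (0.556%). Among the lists it lay in 2 of 9 small heat shock genes and 5 of 32 chaperone and factor genes; it was in 5 of 133 genes that fell and 0 of 67 that rose. The stretches with the element before the gene start are shown for 4 genes that fell, because they show what this promoter feature looks like, with 30 bases on each side where these lie before the gene start. Capitals mark the fixed letters of the element, in the direction of transcription.
HSP17.6C, chr1:19980216-19980288, plus strand: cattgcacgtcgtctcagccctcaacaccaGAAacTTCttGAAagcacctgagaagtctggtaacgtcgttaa
HSP17.4, chr3:16984868-16984996, minus strand: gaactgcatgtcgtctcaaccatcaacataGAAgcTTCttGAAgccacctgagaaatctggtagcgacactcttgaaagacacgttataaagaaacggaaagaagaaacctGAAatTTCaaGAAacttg
HSFA2, chr2:11135506-11135578, plus strand: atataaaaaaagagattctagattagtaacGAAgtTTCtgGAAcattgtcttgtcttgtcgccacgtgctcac
DREB2A, chr5:1602011-1602083, plus strand: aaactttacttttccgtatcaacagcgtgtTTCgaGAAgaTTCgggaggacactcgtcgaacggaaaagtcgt
HSP17.4 held a pair of elements, and the others 1 each, starting at -53 from the gene start in HSP17.6C, -88 in HSFA2 and -164 in DREB2A. A match describes these letters only, in the Columbia reference, whereas the embryos also carried the Ler genome.

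Touch and wound early response genes had 21 of 23 tested lower, a median of -3.72 (-2.76 at the bound), 3 calls and 16 lower at an unadjusted p of 0.05. Over all 17706 tested genes, 9695 were lower, 1232 were lower at that p by edgeR, and 0.774% fell. WRKY40, a transcription factor of early defence that overlaps a gene on the other strand and is uncertain, had 36.7 and 85.5 CPM against 2 reads, a ratio of 55.7 (95% counting interval 15.3 to 461; adjusted p = 0.0179, edgeR). CML38, a calmodulin-like calcium sensor, had 21.8 and 51.6 CPM and no read in the globular library, at least 20.6-fold less (adjusted p = 0.0247, edgeR). BAP1, an inhibitor of cell death, had 105 and 108 CPM against 16.0 CPM (adjusted p = 0.0375, edgeR), a call lost at equal depth (adjusted p = 0.0741) and with isoforms summed (adjusted p = 0.0695). The kyp libraries had 25.1 and 30.4 CPM of BAP1, nearer the globular level than the wild type of their own stage. TCH2, a calmodulin-like gene named for its touch response and uncertain for an overlap on the other strand, had 960 and 1022 CPM against 471 CPM and did not pass. The summed level was 2165 and 2651 CPM at the 2-4 cell stage, 1052 CPM at the globular stage and 2289.9 CPM in the seed coat.

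Jasmonate is a wound and defence hormone, and 23 of its 30 tested genes were lower, with a median of -1.54 and 4 calls. Of all 17706 tested genes, 9695 were lower and 0.774% fell. In synthesis, OPR3, a reductase of the pathway, had 114 and 59.98 CPM against 11.3 CPM (adjusted p = 0.0475, edgeR). In signalling, JAZ1, a repressor induced by the hormone, had 263 and 258 CPM against 55.2 CPM (adjusted p = 0.0475, edgeR), and the activator MYC2, which overlaps a gene on the other strand and is uncertain, had 321 and 377 CPM against 92.6 CPM without passing (adjusted p = 0.0782, edgeR). Among targets, the arginase gene ARGAH2 had 263 and 74.6 CPM and no read in the globular library, at least 94.8-fold less (adjusted p = 0.00147, edgeR). VSP1, a vegetative storage protein, had 45.2 and 29.99 CPM against 2.97 CPM (adjusted p = 0.0483, edgeR). In these 5 genes the globular library was below all 4 libraries of the earlier stage, as it was for 25.2% of all tested genes. OPR3, JAZ1 and VSP1 were close to the threshold: OPR3 was lost without WT library 7 (adjusted p = 0.0784), and at equal depth their adjusted p was 0.0727, 0.0796 and 0.0876, by edgeR. With library size alone the calls on JAZ1 and VSP1 were also lost, as were JAZ1 with isoforms summed and VSP1 with RLE scaling. The summed level of the jasmonate list was 1986 and 1585 CPM against 618 CPM, and 1343 CPM in the seed coat.

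**Figure D4:**
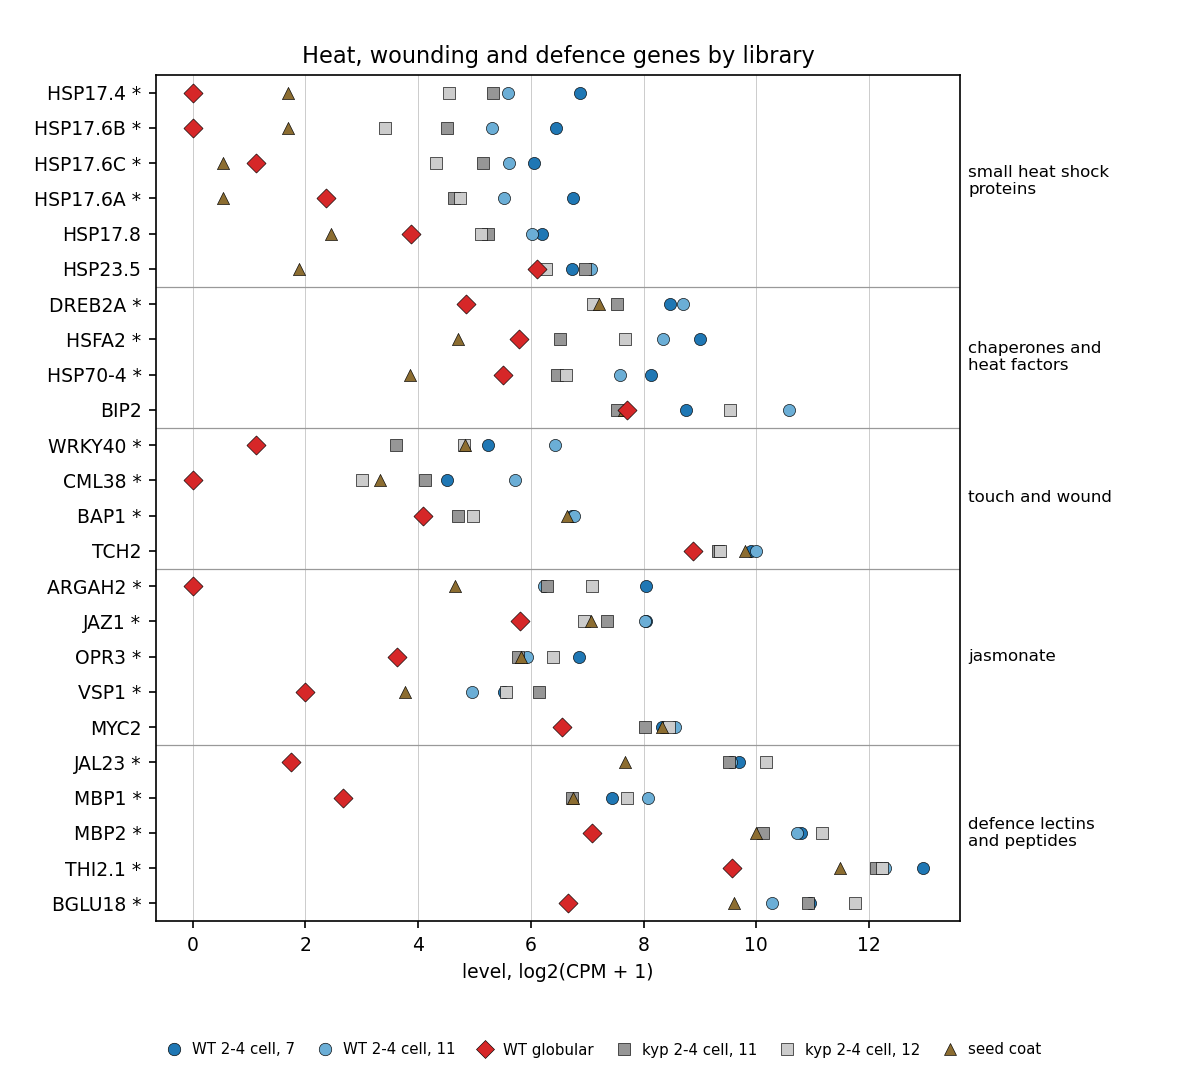
Levels of heat shock, touch and wound, jasmonate and defence genes in each library as log2(CPM + 1), with 1 point per library and an asterisk on genes past the adjusted p of 0.05. The globular library is the lowest of the embryo libraries for most of them, at 0 for HSP17.6B, ARGAH2 and CML38.

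Among the named genes that fell were lectin, thionin and myrosinase-related genes, which form no fixed list and were grouped after their values were seen. JAL23, a jacalin-related lectin, had 830 and 749 CPM at the 2-4 cell stage, 732 and 1158 CPM in the kyp libraries and 2.38 CPM in the globular library, 332 times lower (log2 difference -8.35 ± 0.73, adjusted p = 1.89e-05, edgeR). THI2.1, an antimicrobial thionin, had 7998 and 4987 CPM against 755 CPM, and 2865 CPM in the seed coat. MBP2 and MBP1, myrosinase-binding proteins, had 1769 and 1679 CPM against 134 CPM, and 173 and 271 CPM against 5.34 CPM. BGLU18, a glucosidase of ER bodies, had 1988 and 1241 CPM against 99.8 CPM. These 5 genes fell, and in each the globular library was below the other 5 libraries. Over all tested genes, the globular library was below all 4 2-4 cell libraries for 25.2%.

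Other genes that fell had varied functions. ASN1, the asparagine synthetase induced in the dark, had 376 and 361 CPM against 3 reads, a ratio of 206 (95% counting interval 70.4 to 999.9; adjusted p = 0.00191, edgeR). ASN1 was high in the seed coat, at 967 CPM, and ranged from 112 to 688 CPM in the kyp libraries. AT1G56660, a gene of unknown role, had 1183 and 1371 CPM against 72.4 CPM, and SRC2, named for a cold-induced soybean gene, 1396 and 1035 CPM against 219 CPM. AT2G28680, of the cupin family that includes seed storage proteins, had 546 and 1399 CPM against 49.3 CPM. SPL3, a promoter of the change to the adult and flowering phase, had 498 and 498 CPM against 41.6 CPM (adjusted p = 0.00184, edgeR), but shares its place with a gene on the other strand and is uncertain. AT2G33815, a non-coding RNA that also overlaps a gene on the other strand, fell with nearly the same values, 492 and 485 CPM against 39.2 CPM. The falls of SPL3 and AT2G33815 may therefore not be separate. SPL3 is a target of miR156, and its site is shown with capitals as above.
miR156a-5p: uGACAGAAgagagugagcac
SPL3: UugcuUacucucuucuguca
Its 2 unpaired bases lie outside the stretch facing the seed, and 43 of 27562 transcripts matched miR156 with at most 4 unpaired bases. ABI5, an abscisic acid bZIP factor chosen after its values were seen, had 78.1 and 85.8 CPM against 4.16 CPM.

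KLUH (KLU), a cytochrome P450 that promotes organ and seed growth from the integument, was the 1 call among the 23 seed coat genes. It had 1187 and 2031 CPM at the 2-4 cell stage and 284 CPM at the globular stage, 5.67 times lower (log2 difference -2.50 ± 0.50, adjusted p = 0.0177, edgeR). The seed coat library itself had 58.7 CPM of KLU, below all embryo libraries. The list had 17 of 23 lower, with a median of -0.59. Of all 17706 tested genes, 9695 were lower and 0.774% fell. The flavonoid genes TT4 and TT18 had 4961 and 1742 CPM against 4137 CPM, and 1989 and 1774 CPM against 757 CPM, the first inside and the second below the range of the 2-4 cell libraries. Of 16 tested endosperm and imprinted genes 9 were lower, with a median of -0.21 and no call. Of 7 pollen and sperm genes 2 were tested and neither passed.

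Histone, ribosomal protein and cell division genes gave no call. The globular value was higher for 44.6% of all tested genes. At an unadjusted p of 0.05 by edgeR, 761 of all 17706 tested genes were higher and 1232 lower. Histone genes, listed by product name, were higher for 36 of 40 tested, with a median of 0.69. Their summed level was 6791 and 9223 CPM against 12863 CPM. None passed and 6 were higher at an unadjusted p of 0.05. The list includes the embryo regulator LEC1, which is annotated as a histone superfamily protein. Ribosomal proteins, listed by product name and some serving plastids or mitochondria, were higher for 212 of 279 with a median of 0.39; the sum was 92189.5 and 80618 CPM against 112416 CPM, none passed, and 22 were higher and 5 lower at an unadjusted p of 0.05. The ribosomal protein list includes LOS1, whose product name also places it in an elongation factor family. The histone and ribosomal protein sums both lay above those of the 4 earlier libraries. Cell cycle genes had a median of 0.21 over 47 tested with 28 higher, and DNA replication genes 0.13 over 32 with 19 higher, with no call in either. The replication median changed sign among the alternatives, from -0.12 to 0.46. Chromatin genes had a median of -0.42 over 42 tested with no call, and KYP itself had 57.2 and 62.8 CPM against 26.1 CPM (adjusted p = 0.483, edgeR). Gibberellin genes had a median of -0.77 (-0.10 at the bound) over 19 tested with no call. Photosynthesis genes had a median of -0.10 over 45; the photosystem I subunit gene PSAN was the 1 call, at 3.84 and 4.76 CPM against 42.2 CPM (adjusted p = 0.0375, edgeR), lost without the seed coat library (adjusted p = 0.0646). For PSAN, kyp libraries 11 and 12 had 37.7 and 12.1 CPM and the seed coat 86.9 CPM. Its call was also lost with the block for the prefix in library names. Sugar transport genes had 18 of 26 lower with a median of -1.10 (-0.32 at the bound), and SWEET9 as the 1 call. Of all 17706 tested genes, 9695 were lower and 0.384% rose.

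**Figure D5:**
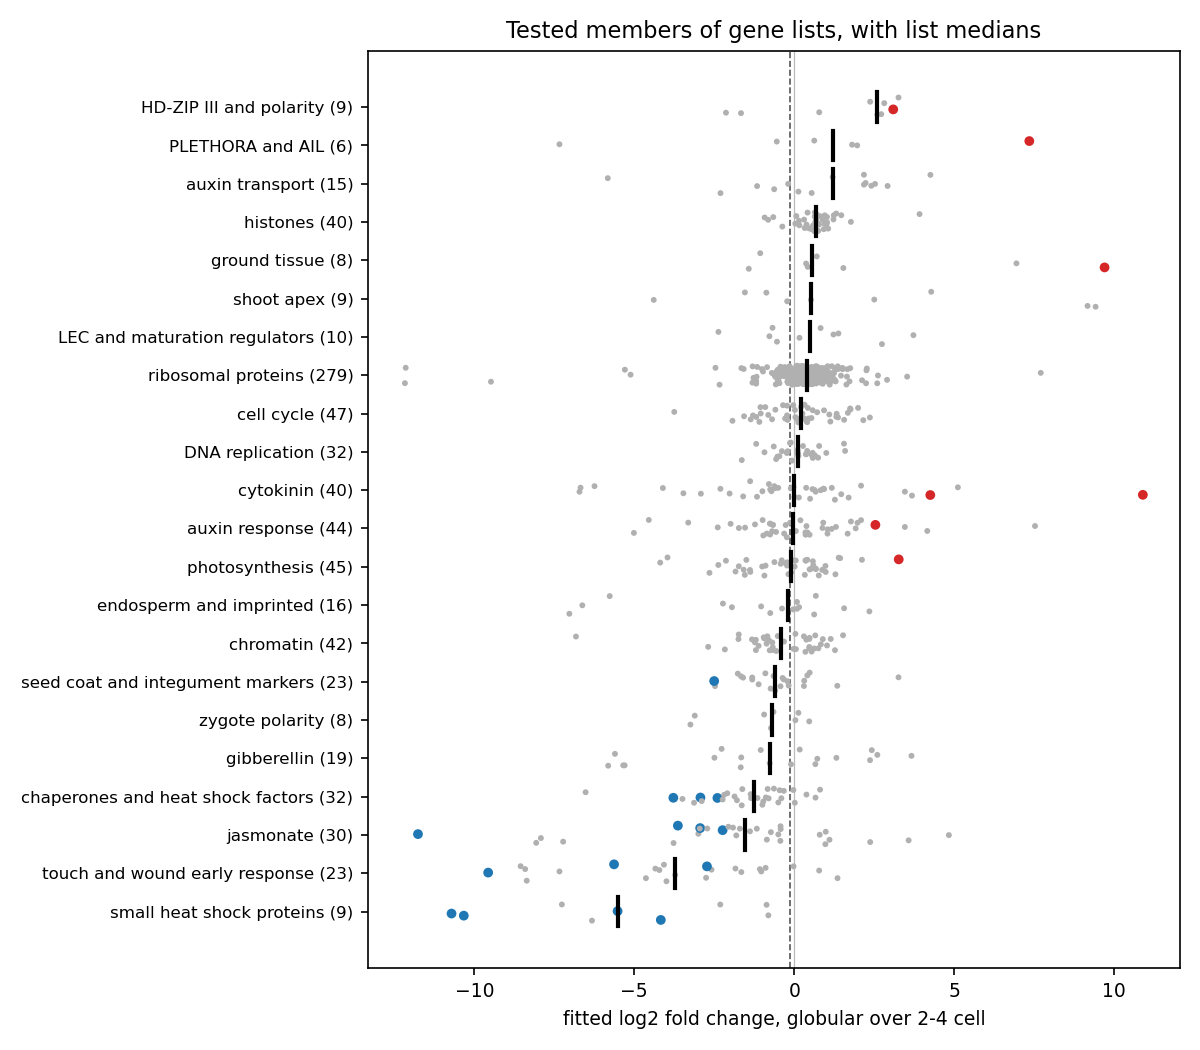
Log2 difference of globular over 2-4 cell embryos for the tested members of each gene list, with 1 point per gene, the list median as a bar, coloured points past the adjusted p of 0.05, and the median of all genes, -0.12, as a dashed line. Small heat shock, touch and wound, and jasmonate genes lie lowest, with medians of -5.52, -3.72 and -1.54 by the fitted values, and HD-ZIP III and polarity genes highest, at 2.60.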

How the data were processed

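RNA of 6 libraries was amplified with the WT-Ovation Pico system and sequenced on SOLiD, per the labels' protocols; the sources used here name no aligner, counter, build or strand. The authors deposited, per the file headers, a table per library with reads per transcript, as whole counts in 4 libraries and as estimated counts that need not be whole in WT library 11 and kyp library 12 (12.7% and 10.8% of transcripts), which were rounded up. The deposited coverage signal columns were not used. Of 37813 transcripts, the one with most reads over the 6 libraries stood for each of 32140 loci, of which 31584 matched RefSeq TAIR10.1. The 6 libraries held 1448502 to 4107227 reads on these loci, and genes were tested in edgeR 4.0.16 (R 4.3.3) with TMM scaling, filterByExpr at 10 reads, a quasi-likelihood fit of 4 groups with 2 residual degrees of freedom, and Benjamini-Hochberg adjustment at 0.05. Standard errors come from that fit. The script was tested on simulated data. Named were, per direction, the 20 genes of smallest p with at least 20 reads and the 8 most abundant calls, and in each list the calls and the 4 most abundant members; other genes are named as chosen after their values were seen. The members and the 29 lists were chosen with earlier results of these data known. Genes overlapping a gene on the other strand, or sharing 20% of their 50-base words with another locus, are named as uncertain. Alternatives were RLE scaling, library size alone, DESeq2 1.42.0, no filter, other sets of libraries, a block for the prefix in library names, equal depth, summed isoforms, removal of non-coding loci and the non-whole counts rounded down. The prefix is in the names of WT library 11 and kyp library 12, which are also the libraries with non-whole counts. The globular library and WT library 7 carry no prefix. Counting intervals are exact Clopper-Pearson. Some results are not reported here.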

Additional observations from a re-analysis of the deposited data

How the results depend on the processing

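The 68 rises and 137 falls became 178 and 384 with no low-count filter, and 198 and 340 from the 3 wild-type embryo libraries alone. DESeq2 gave 79 rises and 260 falls, and the block for the prefix in library names 99 rises and 245 falls. Leaving out each 2-4 cell library in turn gave 97 to 159 rises and 220 to 337 falls. Removing WT library 7 gave 97 rises and 267 falls, and removing WT library 11 gave 116 rises and 220 falls. For the kyp pair it was 144 rises and 336 falls when library 11 was dropped, then 159 rises and 337 falls for library 12. The cause of these shifts was not tested. The counts were lower at equal depth, 53 and 104, and with isoforms summed, 48 and 101. Among the original calls, 54 rises and 127 falls remained without WT library 11, and 45 and 92 with isoforms summed. Of 63 named genes that passed, 49 kept the call in every setting run, and none reversed. No paired analysis was possible because the globular library shares no replicate number with the 2-4 cell libraries. Precision is limited by the single globular library and by its 1773582 reads. A gene with no read there is known only to lie under the floor of 3 reads.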
